A study of Caenorhabditis elegans with 10 samples.

Results

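Cytochrome P450 genes were taken as every gene of the count tables whose name is cyp- with a family number, a subfamily letter and a gene number, as in cyp-13A2. This gave 75 of 20222 genes, in 15 families and 25 subfamilies, of which 13 subfamilies held 1 gene. The P450 gene daf-9 is named by another system and stayed outside. Sequencing gave their read counts in dauers of Caenorhabditis elegans, the arrested larvae that form in place of an ordinary larval stage, with 5 libraries of each of 2 genotypes. The control, called daf-2, carried daf-2(e1370), a temperature-sensitive allele of the insulin-like receptor gene. The double mutant, chd-7;daf-2, carried chd-7(gk290) in addition, so that the daf-2 mutation was shared by all 10 libraries and chd-7(gk290) was never measured without it. Animals had spent 10 days at 25°C from the egg stage, and frozen dauers gave total RNA. Neither the number of animals per library nor their origin from separate cultures is given in the labels, so that the spread behind each p-value may include technical variation only.

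Cytochrome P450 enzymes are heme-containing monooxygenases, most of them anchored in the endoplasmic reticulum, that receive electrons from NADPH through a shared reductase, encoded in C. elegans by emb-8. They oxidise foreign compounds in the first phase of detoxification, and they also act on fatty acids, eicosanoids and steroids. In C. elegans many of the genes lie in tandem arrays and many are expressed in the intestine, where food, microbial products and drugs trigger the transcription of some of them. By sequence, the cyp-29, cyp-31, cyp-32, cyp-37 and cyp-42 families are related to the mammalian CYP4 fatty acid hydroxylases, cyp-13 and cyp-25 to CYP3A, and cyp-14, cyp-33, cyp-34, cyp-35 and cyp-36 to CYP2.

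The libraries held 7331885 to 14997608 reads assigned to genes, and values are given below as normalised read counts (CPM, relative to the TMM-scaled library size). Reads of chd-7 itself ran from 207 to 263 CPM in daf-2 and from 234 to 283 CPM in the double mutant, a difference that did not pass the test (adjusted p = 0.137), and counts per gene do not check a change within the gene. Of 3 genes known for the dauer cuticle, chosen for a check of the stage after the data were seen, cut-6, col-2 and col-40 were read in every library, the last at 3.49 to 118 CPM. Summed over 12 intestinal marker genes, levels were 1846 to 2281 CPM in daf-2 and 1434 to 1669 CPM in the double mutant, and 2 of these markers rose and 5 fell. The sum of 10 germline markers was 188 to 450.2 CPM in daf-2 and 41.8 to 208 CPM in the double mutant, with 8 lower, and that of 4 yolk and uterine genes was 81.97 to 535 CPM in daf-2 and 5.27 to 27.9 CPM in the double mutant, with all 4 lower. Body wall muscle markers summed to 1057 to 2392 CPM in daf-2 and 4318 to 6196 CPM in the double mutant (7 of 8 higher), and epidermal markers to 585 to 792 CPM in daf-2 and 771 to 1019 CPM in the double mutant (5 of 8 tested higher). Neuronal markers summed to 1868 to 2641 CPM in daf-2 and 2071 to 2543 CPM in the double mutant (3 of 8 higher), and no listed marker was at 0 in every library. In whole animals, fewer cells of a type and less RNA per cell cannot be told apart, and the part of such shifts in the P450 results was not tested. Libraries 4 and 5 of daf-2, 1 and 2 of the double mutant, and 3 and 4 of the double mutant were closer to each other than other pairs (chi-square per degree of freedom 3.83 to 6.58, against 16.0 to 67.4), though all differed by more than sampling noise.

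The P450 genes moved in both directions, with more rises than falls, and the summed level of the family overlapped between genotypes. Of the 75 genes, 61 had enough reads to be tested with edgeR's quasi-likelihood test, in a fit of 12499 genes. A total of 29 of the 61 (47.5%) changed at an adjusted p under 0.05, against 36.2% of all tested genes. The 20 that rose in the double mutant were 32.8% of the tested members, against 17.9% of all tested genes, and the 9 that fell were 14.8%, against 18.3%. A change of at least 2-fold was found for 15 rising and 7 falling members, 22 in all, where 14.7% of all tested genes passed both criteria. In 23 of the 61 members (37.7%), all called, the genotypes were free of overlap in CPM, against 22.7% of all tested genes. chd-7;daf-2 was the higher genotype in 17 of these 23. The median log2 fold change was 0.36 over the tested members and -0.03 over all tested genes, and the median size of a change, up or down, was 0.57 and 0.35 on the log2 scale. Because cyp-13A10 and cyp-33C6 passed the filter on low counts almost only through the double-mutant libraries, in which they are high, a difference was to be found in them by the way they were kept. They are among the 20 rising members and among the 23 without overlap. Among the falling members, cyp-31A3, cyp-31A5 and cyp-35D1 reached the filter's level in all 5 daf-2 libraries but in only 2 double-mutant libraries. These falling members were thus kept mainly through daf-2, in which they are high, which favours a difference in them too. cyp-31A3 and cyp-35D1 are also among the 23 without overlap. Leaving out the 3 libraries that stand apart in germline or yolk transcripts (daf-2 replicates 2 and 3, double-mutant replicate 4) gave 22 rising and 7 falling of 63 tested members. Of the 22, only 17 were among the 20 of the full set, while all 7 were among its 9. All genes gave 1855 rising and 1748 falling of 12828 tested in that fit. With 1 library of each close pair left out, which leaves 4 against 3 libraries, 17 of 64 tested members rose and 5 fell. Of these, 16 and 5 were called in the same direction in the full set. All genes there gave 1335 rising and 1324 falling of 12888 tested.

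**Figure D1:**
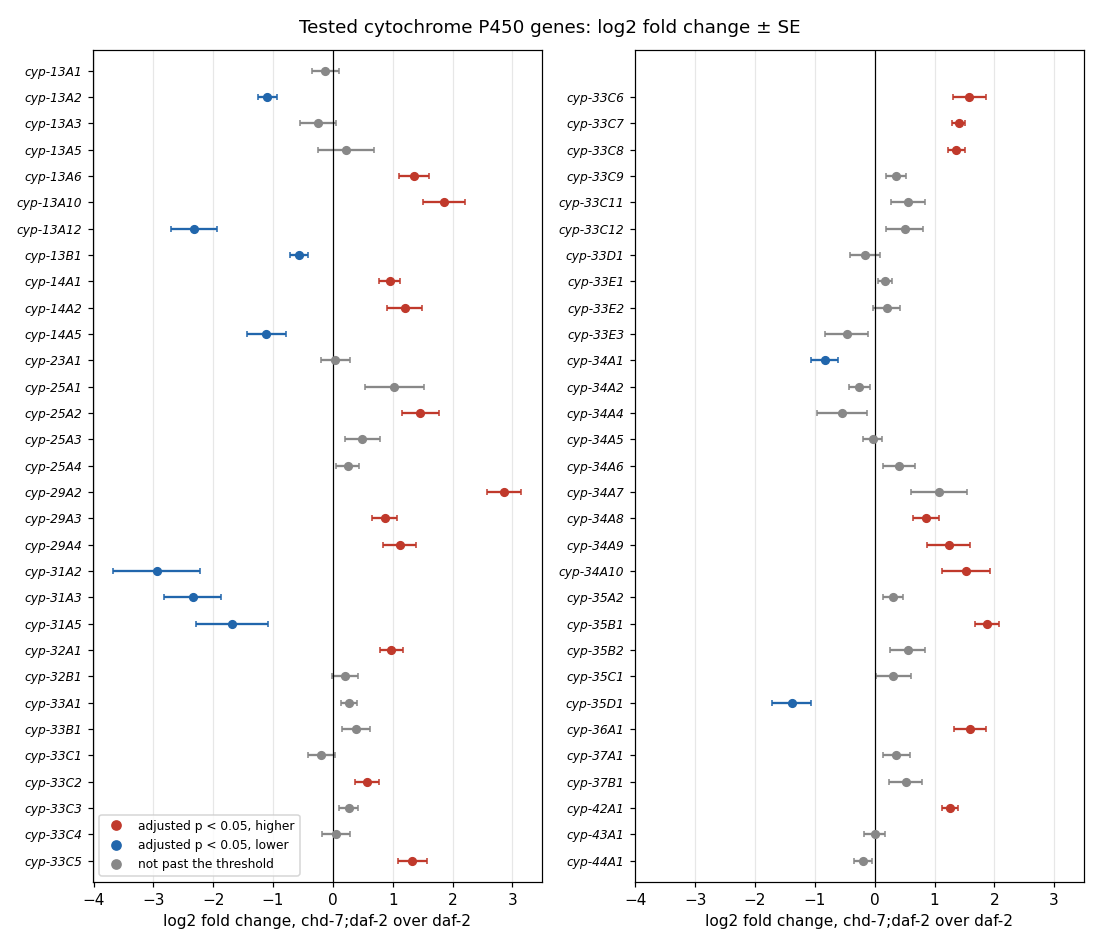
Log2 fold change of the 61 tested cytochrome P450 genes, chd-7;daf-2 over daf-2 (x axis), with its standard error as a bar, one gene per line (y axis). Red points are the 20 genes that rose and blue points the 9 that fell at an adjusted p under 0.05, and grey points are the 32 that did not pass; cyp-29A2 lies farthest to the right at 2.87 and cyp-31A2 farthest to the left at -2.95.

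All P450 genes together summed to 1931 ± 245 CPM (SD, n = 5; 1650 to 2184) in daf-2 and 2084 ± 268 CPM (1790 to 2362) in the double mutant, and the genotypes overlapped. A few genes held most of these reads, and their order shifted between genotypes. Per kilobase of exon, cyp-13B1 had the highest mean level of the family in both genotypes, with 299 ± 39.3 CPM per kb (mean ± SD, n = 5) in daf-2 and 201 ± 38.7 in the double mutant. It was followed in the means of both by cyp-34A2, at 204 ± 46.4 and 171 ± 36.4 CPM per kb. cyp-34A9 stood at 66.04 ± 33.6 and 155 ± 45.8, and cyp-13A2 at 87.3 ± 13.7 and 40.8 ± 8.33 CPM per kb, so that cyp-13A2 was the higher of the pair in the daf-2 mean and cyp-34A9 in the double-mutant mean. In daf-2, where cyp-34A9 was widely spread, these neighbours in rank do not differ beyond their spread. In the double mutant, the ranges of cyp-13B1 (164 to 251), cyp-34A2 (130 to 217) and cyp-34A9 (112 to 206 CPM per kb) overlapped. cyp-35B1 had 25.9 ± 8.63 CPM per kb in daf-2, 8th in the family, and 95.4 ± 8.83 in the double mutant, 4th. cyp-32B1, 5th in both genotypes, was at 46.6 ± 11.1 and 53.7 ± 15.1 CPM per kb and its libraries overlapped. As a share of all P450 CPM, not divided by length, cyp-13B1 went from 25.6% to 15.9% and cyp-13A2 from 10.2% to 4.48%, while cyp-34A9 went from 5.63% to 12.6% and cyp-35B1 from 2.18% to 7.58%.

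**Figure D2:**
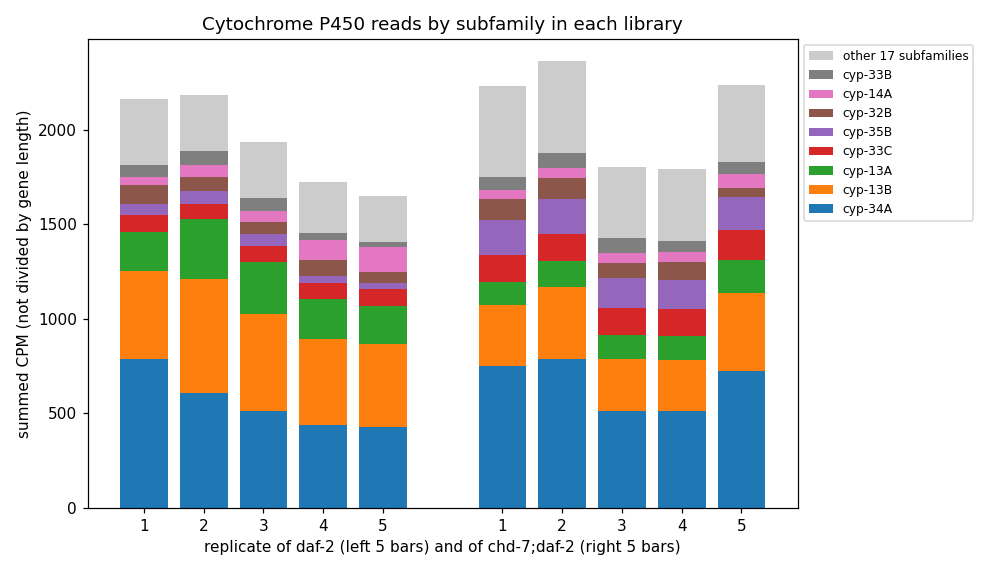
Summed CPM of the cytochrome P450 genes (y axis, not divided by gene length) in each of the 10 libraries (x axis), stacked by subfamily, with the 17 subfamilies of lowest sum in light grey. The totals of the genotypes overlap (1650 to 2184 and 1790 to 2362 CPM), while the cyp-13A and cyp-13B sections are shorter and the cyp-35B and cyp-33C sections taller in the double-mutant libraries.

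Among the CYP4-related genes, the 3 cyp-29A genes rose together. cyp-29A2 had the largest rise of the tested members, and lies at chrV:11217583-11219911 (WBcel235). It was read at 6.57, 4.81, 5.77, 7.60 and 3.93 CPM in daf-2 replicates 1 to 5 and at 61.8, 59.3, 25.1, 32.8 and 32.8 CPM in double-mutant replicates 1 to 5, and values below keep this order. All double-mutant libraries lay above all daf-2 libraries, with replicates 1 and 2 the highest (log2 fold change 2.87 ± 0.28 (SE), adjusted p = 4.37e-05). cyp-29A4 had 1.96, 0.884, 0.915, 1.04 and 0.916 CPM in daf-2 and 2.63, 2.73, 1.95, 2.07 and 3.14 CPM in the double mutant. Its daf-2 replicate 1 lay just above the lowest double-mutant library, so the groups overlapped at that point (log2 fold change 1.12 ± 0.28 (SE), adjusted p = 0.00974). The call was lost without the 3 libraries apart in germline or yolk transcripts (adjusted p = 0.065) and with 1 library of each close pair left out (0.0634). cyp-29A3, whose enzyme makes eicosanoids from long-chain polyunsaturated fatty acids, rose from 20.3 ± 6.30 to 37.2 ± 6.85 CPM (SD, n = 5), with no overlap (log2 fold change 0.87 ± 0.21 (SE), adjusted p = 0.00837). Summed over the subfamily, libraries ran from 16.9 to 37.1 CPM in daf-2 and from 57.4 to 106 CPM in the double mutant.

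The 3 cyp-31A genes fell. cyp-31A2 and cyp-31A3 are needed for the lipid layer of the eggshell and are near-identical copies, so that the split of reads between them is uncertain and reads aligned to several places were not counted. For cyp-31A2 the daf-2 libraries gave 12.97, 12.9, 22.1, 6.57 and 11.5 CPM and the double-mutant libraries 1.49, 0.273, 0.929, 6.10 and 0.196 CPM. No double-mutant library reached the lowest daf-2 library, though replicate 4 came close to it (log2 fold change -2.95 ± 0.72 (SE), adjusted p = 0.00998). cyp-31A3 was at 5.12, 4.42, 8.70, 2.97 and 3.14 CPM and 0.614, 1.0, 0.279, 2.29 and 0.720 CPM, again with double-mutant replicate 4 the highest of its group (log2 fold change -2.35 ± 0.47 (SE), adjusted p = 0.00322). cyp-31A5 was at 6.40, 4.42, 9.34, 2.49 and 4.97 CPM and 1.84, 0.454, 0.743, 5.12 and 0.655 CPM. Here double-mutant replicate 4 lay above 3 of the 5 daf-2 libraries and the groups overlapped (log2 fold change -1.69 ± 0.60 (SE), adjusted p = 0.0464). That call near the threshold was lost in 8 of the 10 fits that left out 1 library (every one except double-mutant replicate 4 and daf-2 replicate 4; adjusted p up to 0.11). It was also lost with no filter (adjusted p = 0.0711) and with the replicate number as a block (log2 fold change -1.998, adjusted p = 0.0647). Both cyp-31A3 and cyp-31A5 were kept by the filter mainly through daf-2, which favours a fall in them. Without double-mutant replicate 4, the log2 fold changes were -4.22 for cyp-31A2, -2.87 for cyp-31A3 and -2.57 for cyp-31A5. daf-2 replicate 3 had the highest sum of both (40.1 CPM of cyp-31A and 450.2 CPM of germline markers), and double-mutant replicate 4 had the highest of its group in both (13.5 and 208 CPM). All 3 falls passed the test when those libraries and daf-2 replicate 2 were left out, with log2 fold changes of -3.87, -2.50 and -2.32. The libraries kept in that fit still stood apart in the sum of germline markers (211 to 303 CPM in daf-2, 41.8 to 63.3 CPM in the double mutant). The part of the germline transcripts in these falls was not tested.

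Of the remaining CYP4-related genes, cyp-42A1 and cyp-32A1 rose and 3 did not pass the test. cyp-42A1 was read at 21.6, 17.9, 14.9, 15.8 and 17.1 CPM in daf-2 and 46.5, 47.7, 39.96, 35.4 and 39.5 CPM in the double mutant. Libraries were narrow within each genotype and far apart between them (log2 fold change 1.26 ± 0.13 (SE), adjusted p = 3.95e-05). cyp-32A1 rose from 12.2 ± 1.54 to 24.1 ± 7.43 CPM without overlap (log2 fold change 0.98 ± 0.20 (SE), adjusted p = 0.0031). cyp-32B1 (76.7 ± 18.3 and 88.5 ± 24.9 CPM, adjusted p = 0.497), cyp-37A1 (11.01 ± 3.07 and 14.3 ± 3.61 CPM, adjusted p = 0.212) and cyp-37B1 (31.5 ± 12.9 and 45.2 ± 13.6 CPM, adjusted p = 0.163) overlapped between genotypes. Across the 11 CYP4-related genes, all of which were tested, 5 rose, 3 fell and 3 did not pass. Among all tested genes 17.9% rose and 18.3% fell. Of the 3 that fell, cyp-31A3 and cyp-31A5 were kept by the filter mainly through daf-2, and the call of cyp-31A5 lay near the threshold.

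**Figure D3:**
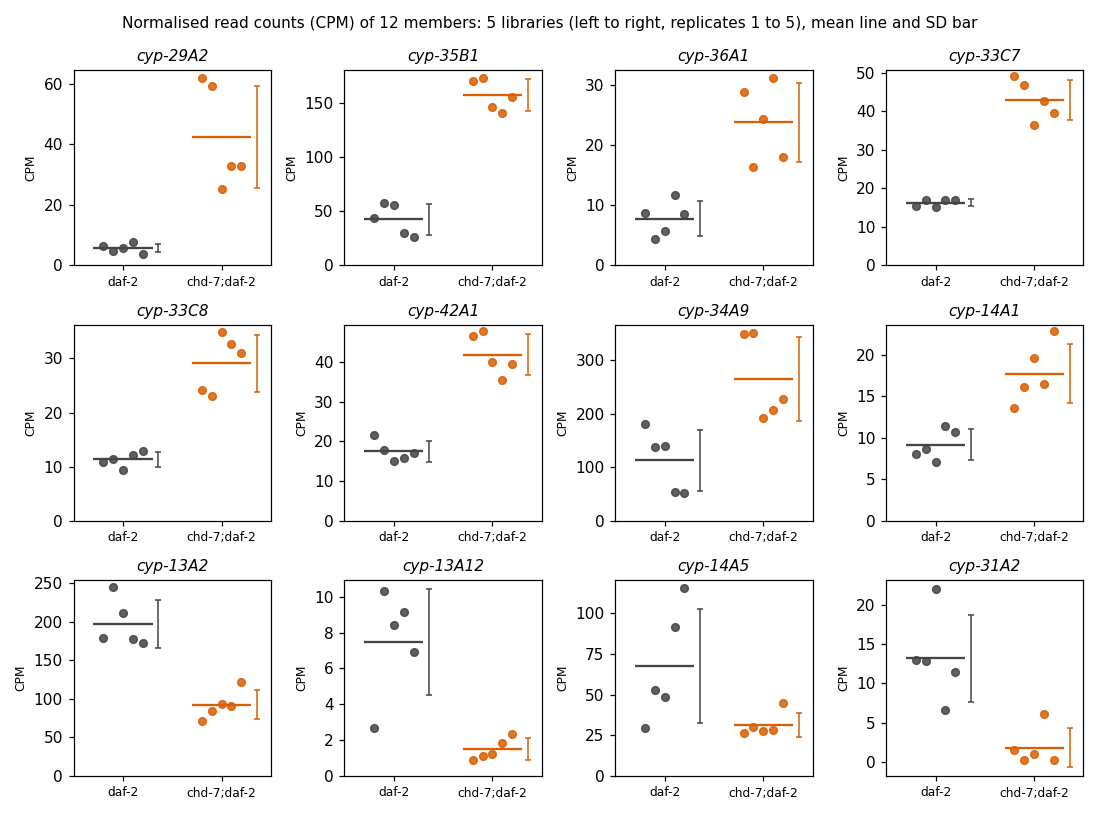
CPM (y axis, own scale in each panel) of 12 cytochrome P450 genes in the daf-2 (grey) and chd-7;daf-2 (orange) libraries, 5 points per genotype from replicate 1 at the left to replicate 5 at the right, with the mean as a line and the SD as a bar. The groups stand apart in every panel except cyp-14A5, in which daf-2 replicate 1 lies among the double-mutant libraries, and cyp-29A2, cyp-33C8 and cyp-34A9 fall into a higher and a lower set of libraries within the double mutant.

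The CYP3A-related genes were split. In the cyp-13 family 2 of 8 tested genes rose (25%) and 3 fell (37.5%), against 17.9% and 18.3% of all tested genes, and 3 did not pass. cyp-13B1 and cyp-13A2, the members of this family with the highest levels per length, were among those that fell. cyp-13B1, highest of the P450 genes in mean level per length, lies at chrX:13406674-13409643. Its daf-2 libraries held 466, 599, 512, 452 and 439 CPM and its double-mutant libraries 322, 381, 274, 271 and 414 CPM. The groups did not overlap, but the highest double-mutant library was close to the lowest daf-2 library (log2 fold change -0.57 ± 0.15 (SE), adjusted p = 0.0114). The call was lost without the 3 libraries apart in germline or yolk transcripts, at a log2 fold change of -0.39 (adjusted p = 0.106), and with 1 library of each close pair left out (adjusted p = 0.0541). cyp-13A2 was read at 179, 245, 211, 178 and 172 CPM in daf-2 and at 71.5, 83.98, 92.6, 90.1 and 122 CPM in the double mutant. Every double-mutant library lay below every daf-2 library (log2 fold change -1.10 ± 0.15 (SE), adjusted p = 0.000355). The third of the falling genes was cyp-13A12, which acts through eicosanoids in the behavioural response to reoxygenation, with 2.65, 10.3, 8.42, 9.12 and 6.94 CPM in daf-2 and 0.878, 1.09, 1.21, 1.85 and 2.36 CPM in the double mutant. daf-2 replicate 1 was low for its group and just above the highest double-mutant library (log2 fold change -2.32 ± 0.38 (SE), adjusted p = 0.00092).

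The 2 rising cyp-13 genes were at low levels. cyp-13A6 went from 2.90, 4.42, 3.39, 3.11 and 2.23 CPM to 12.02, 9.63, 5.76, 5.99 and 7.79 CPM, with no overlap and with double-mutant replicates 1 and 2 highest (log2 fold change 1.35 ± 0.25 (SE), adjusted p = 0.00196). cyp-13A6 shares 101 exonic bases with a gene annotated on the opposite strand. cyp-13A10 was at 0.853, 0.982, 0.732, 0.346 and 0.393 CPM in daf-2, where only 36 reads were found in all, and at 2.81, 2.91, 1.21, 2.07 and 3.01 CPM in the double mutant (log2 fold change 1.85 ± 0.35 (SE), adjusted p = 0.00239). It passed the filter on low counts almost only through the double-mutant libraries, which favours a difference in it. cyp-13A5 did not pass (adjusted p = 0.732), with daf-2 libraries of 7.77, 27.5, 23.2, 5.60 and 4.58 CPM that spanned the range of the double mutant. Those of cyp-13A1 and cyp-13A3 also overlapped between genotypes (adjusted p = 0.678 and 0.547). cyp-13A4, cyp-13A7, cyp-13A8, cyp-13A11 and cyp-13B2 were not tested, with 20 to 109 reads over the 10 libraries. Of the cyp-25A genes, cyp-25A2 rose, from 2.05, 3.34, 4.03, 6.91 and 2.88 CPM to 11.6, 15.2, 9.29, 7.52 and 10.1 CPM. daf-2 replicate 4 was the highest of its group and came close to the lowest double-mutant library (log2 fold change 1.46 ± 0.30 (SE), adjusted p = 0.00386). Its neighbours cyp-25A1 (log2 fold change 1.03 ± 0.49, adjusted p = 0.119), cyp-25A3 (0.49 ± 0.29, 0.207) and cyp-25A4 (0.25 ± 0.20, 0.346) did not pass, and cyp-25A6 had 4 reads in all.

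The CYP2-related genes made up most of the family, and among them cyp-33C was the largest subfamily. Its 11 genes were all tested, 5 rose (45.5%, against 17.9% of all tested genes) and 6 did not pass. The sum of the subfamily varied little within a genotype, with 85.7 ± 4.89 CPM (SD, n = 5) in daf-2 and 145 ± 7.98 CPM in the double mutant. cyp-33C7 contributed most to the rise, with 15.4, 16.9, 15.1, 16.9 and 17.02 CPM in daf-2 and 49.1, 46.99, 36.5, 42.7 and 39.5 CPM in the double mutant. The gap between genotypes was wider than the whole range within either (log2 fold change 1.40 ± 0.10 (SE), adjusted p = 5.17e-06), and this was the smallest adjusted p of the tested members. cyp-33C8 gave 10.9, 11.4, 9.34, 12.2 and 12.8 CPM in daf-2 and 24.1, 23.1, 34.9, 32.7 and 30.97 CPM in the double mutant. It too was free of overlap, and here double-mutant replicates 1 and 2 were the lowest of their group (log2 fold change 1.36 ± 0.14 (SE), adjusted p = 5.94e-05). cyp-33C5 had 2.65, 2.95, 3.11, 2.70 and 2.49 CPM and 5.97, 7.998, 5.67, 4.58 and 10.7 CPM, again apart (log2 fold change 1.33 ± 0.24 (SE), adjusted p = 0.00152). cyp-33C6, at 0.597, 0.491, 0.732, 0.968 and 0.393 CPM and 2.19, 2.27, 1.58, 2.29 and 1.64 CPM, rested on 37 reads in daf-2 and 113 in the double mutant (log2 fold change 1.58 ± 0.28 (SE), adjusted p = 0.00143). It passed the filter on low counts almost only through the double-mutant libraries, which favours a difference in it. The fifth, cyp-33C2, went from 6.97 ± 1.69 to 10.3 ± 2.15 CPM with overlapping libraries (log2 fold change 0.57 ± 0.20 (SE), adjusted p = 0.0451). Its call was lost in 9 of the 10 fits that left out 1 library (all but daf-2 replicate 5), with adjusted p up to 0.125, and also under total-count scaling (0.0851), with limma (0.0562), with no filter (0.0551), without the 3 libraries apart in germline or yolk transcripts (0.157) and with 1 library of each close pair left out (0.0678).

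The other 6 cyp-33C genes (cyp-33C1, cyp-33C3, cyp-33C4, cyp-33C9, cyp-33C11 and cyp-33C12) had log2 fold changes from -0.19 to 0.56 and did not pass, and cyp-33C9 came nearest (adjusted p = 0.116). Outside cyp-33C, none of the 6 tested cyp-33 genes passed. cyp-33A1 was at 17.8 ± 2.78 and 21.5 ± 2.62 CPM (adjusted p = 0.134). cyp-33B1 was at 61.3, 72.6, 66.8, 35.8 and 28.8 CPM in daf-2 and at 69.8, 75.2, 80.1, 60.8 and 62.3 CPM in the double mutant, and the daf-2 libraries 4 and 5 were below all others while 1 to 3 lay within the double-mutant range (adjusted p = 0.204). cyp-33E2, also known for eicosanoid synthesis, had 4.35 ± 0.690 and 4.97 ± 1.49 CPM (log2 fold change 0.20 ± 0.23, adjusted p = 0.509). cyp-33D1, cyp-33E1 and cyp-33E3 had log2 fold changes of -0.16, 0.18 and -0.47, and cyp-33D3 was not tested (28 reads).

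In cyp-34A 3 genes rose (33.3%), 1 fell (11.1%) and 5 did not pass, where 17.9% of all tested genes rose and 18.3% fell. cyp-34A9, also named dod-16 for its place downstream of the FOXO factor DAF-16, was read at 181, 137, 139.6, 53.3 and 52.5 CPM in daf-2 and 349, 351, 192, 208 and 228 CPM in the double mutant. The highest daf-2 library lay just under the lowest double-mutant library, and both genotypes fell into levels, daf-2 replicates 4 and 5 low and double-mutant replicates 1 and 2 high (log2 fold change 1.23 ± 0.36 (SE), adjusted p = 0.0205). Without double-mutant replicate 1 or 2 the call was lost (adjusted p = 0.0527 and 0.051), as it was with 1 library of each close pair left out (0.0868). cyp-34A10 had the same libraries high and low within each genotype (daf-2 replicates 4 and 5 low, double-mutant replicates 1 and 2 high) at a low level, with 2.39, 1.87, 1.56, 0.829 and 0.785 CPM and 6.32, 6.998, 2.97, 2.83 and 2.49 CPM (log2 fold change 1.52 ± 0.40 (SE), adjusted p = 0.0127), and it lost its call with 1 library of each close pair left out (adjusted p = 0.0729). cyp-34A8 rose from 15.9 ± 2.69 to 28.8 ± 9.60 CPM with no overlap (log2 fold change 0.86 ± 0.22 (SE), adjusted p = 0.0117). cyp-34A1 fell from 4.66 ± 1.14 to 2.60 ± 0.563 CPM with overlap (log2 fold change -0.83 ± 0.23 (SE), adjusted p = 0.0146), and its call was lost without the 3 libraries apart in germline or yolk transcripts (adjusted p = 0.0942) and with 1 library of each close pair left out (0.0674). cyp-34A2, next to it on the chromosome and second of the family in mean level per length, had 496, 378, 302, 313 and 312 CPM and 309, 340.1, 246, 230.4 and 384 CPM, and its groups overlapped (log2 fold change -0.26 ± 0.18, adjusted p = 0.286). cyp-34A4 varied widely among daf-2 libraries, from 7.59 to 60.1 CPM, and did not pass (adjusted p = 0.33). Nor did cyp-34A5, cyp-34A6 and cyp-34A7 (log2 fold changes -0.03, 0.40 and 1.08). cyp-34A7 was the uncalled member nearest to the threshold (adjusted p = 0.0934).

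cyp-35B1, the other DAF-16-linked P450 gene (dod-13), had the second largest fold change among the rises of the 61 tested members, within its error of that of cyp-13A10. It lies at chrV:3939032-3941237 and was read at 43.95, 57.2, 55.9, 30.3 and 26.3 CPM in daf-2 and 171, 173, 146, 141 and 155 CPM in the double mutant. The lowest double-mutant library was far above the highest daf-2 library, and within daf-2 replicates 4 and 5 were again the lowest (log2 fold change 1.88 ± 0.21 (SE), adjusted p = 7.65e-05). cyp-35B2 had 9.29 ± 4.72 and 13.6 ± 2.07 CPM and did not pass (adjusted p = 0.162), and cyp-35B3 had 17 reads. The cyp-35A genes, known as inducible by foreign compounds and for a role in fat storage, had few reads apart from cyp-35A2. That gene was at 49.9, 34.5, 31.03, 26.6 and 28.4 CPM in daf-2 and 39.05, 40.7, 39.96, 38.2 and 51.9 CPM in the double mutant, with overlap (log2 fold change 0.30 ± 0.17, adjusted p = 0.177). cyp-35A1, cyp-35A3 and cyp-35A4, with cyp-25A6, were the 4 members with at most 15 reads over all libraries (14, 1, 2 and 4 reads), where a count of 0 allows up to 0.196 to 0.393 CPM per library, which covers counting error only. cyp-35A5 had 66 reads, 8 in daf-2 and 58 in the double mutant, and was not tested. cyp-35C1 did not pass (adjusted p = 0.428), with 22.5, 21.01, 14.6, 7.67 and 7.59 CPM in daf-2 and 18.3, 21.9, 17.4, 15.7 and 17.9 CPM in the double mutant. cyp-35D1, which hydroxylates the anthelmintic thiabendazole, fell. It was at 3.58, 1.67, 2.20, 1.59 and 1.44 CPM in daf-2 and 0.965, 0.636, 0.558, 0.654 and 1.11 CPM in the double mutant, a low level at which no library overlapped (log2 fold change -1.39 ± 0.33 (SE), adjusted p = 0.00756). With 1 library of each close pair left out its adjusted p was 0.0504.

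The cyp-14A genes went both ways. cyp-14A1 rose from 9.18 ± 1.86 to 17.7 ± 3.57 CPM without overlap (log2 fold change 0.95 ± 0.18 (SE), adjusted p = 0.00216). cyp-14A2 had 1.71, 2.36, 1.46, 3.18 and 3.67 CPM in daf-2 and 6.67, 6.27, 3.44, 4.58 and 7.27 CPM in the double mutant. Its highest daf-2 library passed the lowest double-mutant library (log2 fold change 1.202 ± 0.29 (SE), adjusted p = 0.00912), and without the 3 libraries apart in germline or yolk transcripts the adjusted p was 0.0504. cyp-14A5, which lies apart from the others at chrV:5421018-5423282, was at 29.7, 52.8, 48.7, 91.5 and 116 CPM in daf-2 and 26.1, 30.2, 27.4, 28.00 and 44.5 CPM in the double mutant. daf-2 replicates 4 and 5 were the highest and replicate 1 lay within the double-mutant range (log2 fold change -1.11 ± 0.33 (SE), adjusted p = 0.0225). The log2 fold change stayed between -0.98 and -1.07 in the 3 fits without 1 library that missed the threshold, where the adjusted p was 0.0571 without double-mutant replicate 1, 0.0511 without its replicate 3 and 0.0513 without daf-2 replicate 4. With 1 library of each close pair left out, the log2 fold change was -0.77 (adjusted p = 0.16). cyp-14A3 and cyp-14A4 were under the filter on low counts, with 112 and 90 reads. For cyp-14A3 the libraries gave 0.427, 0.393, 0.183, 0.207 and 0 CPM in daf-2 and 2.19, 2.82, 1.86, 0.871 and 0.917 CPM in the double mutant, without overlap. When no filter was applied, cyp-14A3 and cyp-35A5 were the untested members that passed, with log2 fold changes of 2.72 (adjusted p = 0.00155) and 2.68 (adjusted p = 0.0063), and the other 12 did not.

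cyp-36A1 acts downstream of the hypoxia factor HIF-1, where it was found to work through the nuclear receptor gene nhr-46. It was read at 8.71, 4.32, 5.77, 11.6 and 8.51 CPM in daf-2 and 28.9, 16.4, 24.3, 31.2 and 17.9 CPM in the double mutant, and no library overlapped (log2 fold change 1.60 ± 0.27 (SE), adjusted p = 0.0011). The gene lies on chromosome I and shares 147 exonic bases with figo-1 on the opposite strand, and reads of the pair may not be told apart, as no source used here states whether the counting used strand. Its log2 fold change was 1.17 without the 3 libraries apart in germline or yolk transcripts. 3 genes in families of their own did not pass. cyp-44A1, of the mitochondrial type, was at 23.9 ± 5.12 and 21.02 ± 2.61 CPM (log2 fold change -0.19 ± 0.15). cyp-43A1 was at 12.5 ± 1.69 and 12.6 ± 2.79 CPM (0.00 ± 0.17), and cyp-23A1 at 7.80 ± 2.45 and 7.98 ± 1.86 CPM (0.04 ± 0.24).

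Several of these genes had the same libraries highest or lowest within a genotype. daf-2 replicates 4 and 5, which were close in all genes, had the lowest daf-2 values of cyp-34A9, cyp-34A10, cyp-35B1, cyp-35B2, cyp-35C1 and cyp-33B1, and the highest of cyp-14A1, cyp-14A2 and cyp-14A5. In the double mutant, replicates 1 and 2 had the highest values of their group for cyp-29A2, cyp-34A8, cyp-34A9, cyp-34A10, cyp-13A6 and cyp-32A1, and the lowest for cyp-33C8. These sets were noticed in the values and carry no test.

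**Figure D4:**
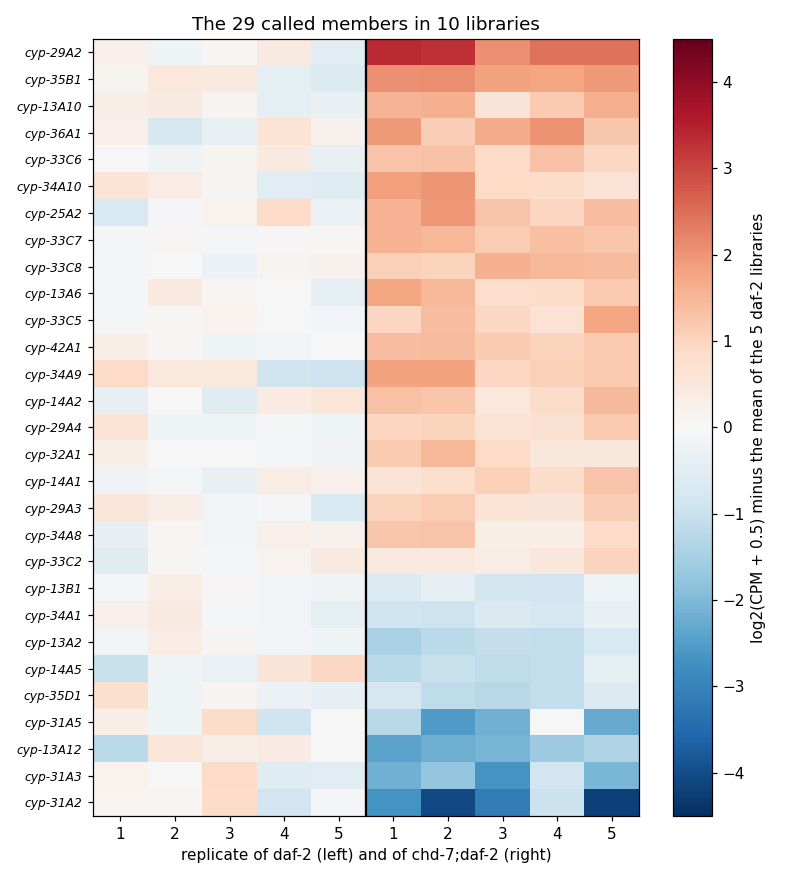
Log2(CPM + 0.5) of the 29 called cytochrome P450 genes (lines) in the 10 libraries (columns), each gene as the difference from its mean over the 5 daf-2 libraries, with red for higher and blue for lower values. The 20 rising genes are at the top in the order of their fold change; in cyp-31A2, cyp-31A3 and cyp-31A5 the double-mutant replicate 4 is paler than the other 4 libraries of its genotype.

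By position, the family was concentrated on chromosome V. Of the 75 names, 74 matched a gene of the Ensembl 115 annotation of WBcel235, and cyp-34A4 did not. 41 lie on chromosome V, 12 on II, 7 on IV, 7 on X, 6 on III and 1 on I. Taking members whose genes lie within 20000 bases of each other as a cluster, 45 genes fell into 11 clusters. The largest spans 36666 bases at chrV:3936326-3972991 and holds cyp-35A5, the 3 cyp-35B genes and cyp-34A5 to cyp-34A10. Of its 8 tested genes 4 rose (cyp-35B1, cyp-34A8, cyp-34A9 and cyp-34A10), and log2 fold changes ran from -0.03 to 1.88. Of all tested genes 17.9% rose. The cluster of 5 cyp-33C genes at chrV:2236140-2252591 held the rising genes cyp-33C5 and cyp-33C7. Between them lies cyp-33C6, which passed the filter almost only through the double-mutant libraries. cyp-33C3 and cyp-33C4 had log2 fold changes of 0.26 and 0.05. Neighbours were not uniform: in the cyp-13A cluster at chrII:9779181-9807569, cyp-13A2 fell and cyp-13A6 rose, and cyp-13A1, cyp-13A3 and cyp-13A5 did not pass. In 17 members at least 50 exonic bases overlap another annotated gene on the opposite strand, among them the called genes cyp-13A6, cyp-31A5, cyp-34A1, cyp-34A8, cyp-34A9, cyp-35B1 and cyp-36A1.

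**Figure D5:**
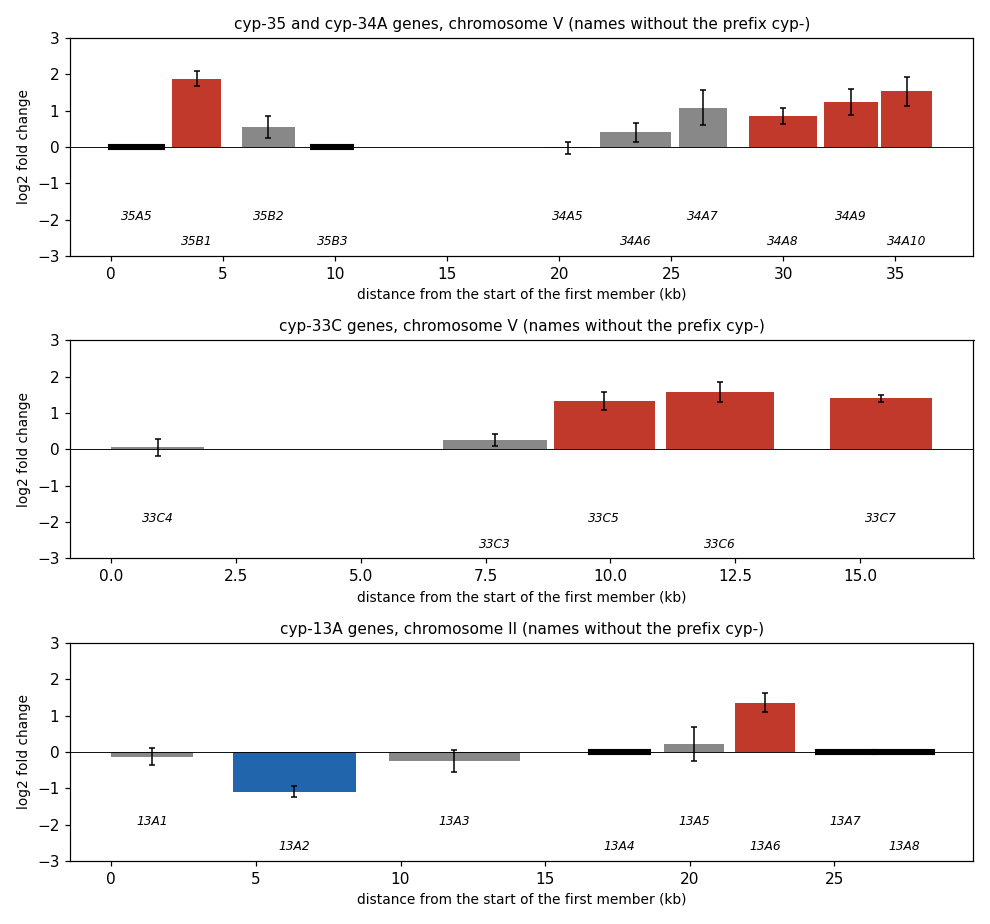
Log2 fold change, chd-7;daf-2 over daf-2 (y axis), of the P450 genes in 3 clusters, each bar as wide as the gene and placed by its distance in kb from the start of the first gene (x axis), with the standard error. Red bars rose, blue fell, grey did not pass the test, and flat black bars mark genes with too few reads for the test; cyp-33C6, between cyp-33C5 and cyp-33C7, passed the filter on low counts almost only through the double mutant, and cyp-13A2 and cyp-13A6 lie on opposite sides of 0.

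Genes that serve or control P450 enzymes were taken as a list of their own. Of 24 tested partners, heme supply and regulators, 6 rose and 2 fell, and none by 2-fold. These 8 were 33.3% of the list, near the 36.2% of all tested genes. DESeq2 gave 8 rising genes of the list and limma 9. These tools also called more rises among all 12499 tested genes, 2463 and 2495, against 2240 with edgeR. emb-8, the reductase gene that supplies the electrons, rose from 277 ± 51.2 to 394 ± 67.4 CPM with overlapping libraries (log2 fold change 0.51 ± 0.16 (SE), adjusted p = 0.0252). ceeh-1, an epoxide hydrolase that opens the epoxides made by P450 enzymes, rose from 49.99 ± 9.45 to 77.4 ± 10.8 CPM with overlapping libraries (log2 fold change 0.63 ± 0.14 (SE), adjusted p = 0.00578). The cytochrome b5 genes cytb-5.1 and cytb-5.2 and the second hydrolase gene ceeh-2 did not pass. hrg-1, which encodes a heme transporter, fell from 119 ± 34.7 to 74.9 ± 18.96 CPM with overlapping libraries (log2 fold change -0.66 ± 0.21 (SE), adjusted p = 0.0306). Of 16 regulators, mdt-15, a Mediator subunit gene needed for the transcription of detoxification and lipid genes, rose from 159 ± 19.6 to 232 ± 21.5 CPM without overlap (log2 fold change 0.54 ± 0.12 (SE), adjusted p = 0.00439). The nuclear receptor genes nhr-46 (60.8 ± 6.82 to 83.98 ± 11.3 CPM, adjusted p = 0.00983), nhr-48 (100.2 ± 8.94 to 145 ± 7.35 CPM, 0.00129) and nhr-142 (5.92 ± 1.31 to 8.41 ± 1.01 CPM, 0.044) rose as well. Of these rising receptor genes, only nhr-142 had overlapping libraries. nhr-176, whose receptor is required for the induction of cyp-35D1 by thiabendazole, fell from 16.1 ± 2.59 to 9.68 ± 1.86 CPM without overlap (log2 fold change -0.73 ± 0.16 (SE), adjusted p = 0.00471). cyp-35D1 fell as well, and a link between the falls of these genes was not tested. The hypoxia genes hif-1, egl-9 and vhl-1, the xenobiotic factors skn-1, ahr-1 and nhr-8 and the steroid receptor gene daf-12 did not pass, and egl-9 was spread widely, from 88.98 to 433 CPM. Leaving out each library in turn gave 1 to 2 falling genes of the list. With 1 library of each close pair left out, 2 of the list rose and 1 fell.

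In other detoxification families, UDP-glucuronosyltransferase genes (ugt) had 22 rising and 7 falling of 54 tested, and glutathione S-transferase genes (gst) 12 rising and 1 falling of 34. Genes called in either direction were 53.7% of ugt and 38.2% of gst genes, against 36.2% of all tested genes, of which 17.9% rose and 18.3% fell. P-glycoprotein genes (pgp) had 2 rising and 1 falling of 10, and short-chain dehydrogenase genes (dhs) 9 rising and 1 falling of 28 (35.7% called). The shares of gst, pgp and dhs genes called were near that of all genes. Median log2 fold changes were 0.59 for ugt, 0.45 for gst, 0.21 for pgp and 0.29 for dhs genes, beside 0.36 for the P450 genes. daf-9, the P450 gene outside the naming rule, makes the dafachronic acids that oppose dauer arrest, and was at 0.171, 0.0982, 0.366, 0.276 and 0.393 CPM in daf-2 and 30.4, 35.1, 28.1, 26.6 and 6.02 CPM in the double mutant. Its rise (log2 fold change 6.56 ± 0.55 (SE), adjusted p = 1.73e-05) exceeded that of any tested cyp gene, and replicate 5 was the lowest of the double-mutant libraries. With 14 reads in daf-2, daf-9 passed the filter on low counts only through the double-mutant libraries, in which it is high. A difference was thus to be found in daf-9 by the way it was kept.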

How the data were processed

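RNA-seq was analysed from 5 libraries of daf-2 dauers and 5 of chd-7;daf-2 dauers, made per the labels' protocols with TRIzol and an NEBNext Ultra II RNA kit. The authors deposited, for each library, whole-number read counts per gene name, not normalised. The submitters' processing notes list STAR 2.5.4a and HTSeq 0.9.1, besides DESeq2 1.20.0 and FastQC 0.11.5. Which genome build and annotation were used, and whether strand was, is not given in the sources used here, so that reads of genes that overlap on opposite strands may be shared. HTSeq's tallies of reads without a gene (2.94% to 5.70% outside any gene, 2.07% to 2.30% ambiguous and 5.53% to 11.2% aligned to several places, of all entries) were left out of library sizes and tests.

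The test was run with edgeR 4.0.16 in R 4.3.3. The filter filterByExpr (minimum count 10, minimum total 15) kept 12499 of 20222 genes, scaling was by TMM, and genotypes were compared with the robust quasi-likelihood F test, without covariates. Benjamini-Hochberg adjustment was over all 12499 genes, at a threshold of 0.05, and every adjusted p in the text is from edgeR unless another tool is named. A gene past the threshold is said to have risen or fallen in chd-7;daf-2. Standard errors of log2 fold changes are their size over the root of F. CPM use the TMM-scaled library sizes. Ranks of genes by level use CPM per kilobase of merged exons of the Ensembl 115 annotation of WBcel235, which may differ from the annotation used for counting. The gene cyp-34A4, which matched no gene there, has no such rank. Shares of P450 CPM and sums of subfamilies are not divided by length. A count of 0 allows up to 3 counts. Sums of subfamilies, shares and positions are descriptions without a test. The fitting script was checked on simulated data.

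The members, the gene lists and the rule for naming genes were chosen with earlier results of these data known. By that rule, called members changed by at least 2-fold are given in every library, other called members by their means, and named besides are the 6 members highest per length, those with at most 15 reads in all, those nearest the threshold, the called partner and regulator genes and emb-8. The other genes and values given were chosen after the values were seen. No counted gene had the name hrg-7, which was on the heme supply list, and hrg-3 had too few reads for the test. The alternatives tried were limma 3.58.1 (voom, quality weights), DESeq2 1.42.0, RLE and total-count scaling, no filter and a filter of 5 CPM in 5 libraries, the replicate number as a block, leaving out each library, and leaving out 3 libraries apart in germline or yolk transcripts. Leaving out 1 library of each close pair (daf-2 replicate 5, chd-7;daf-2 replicates 2 and 4) was added after the data were seen.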

Additional observations from a re-analysis of the deposited data

Results flagged for a closer look

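In 3 of the 52 sets of 5 libraries checked, 1 library of a named gene lay far from the other 4 by Dixon's test, which chance alone gives in about 1 of 20 sets. For cyp-14A5, chd-7;daf-2 replicate 5 stood at 44.5 CPM, where the next of its group was at 30.2 CPM. For cyp-29A4, daf-2 replicate 1 stood at 1.96 CPM and the next at 1.04 CPM, and this library made the overlap between genotypes. For cyp-31A2, chd-7;daf-2 replicate 4 stood at 6.10 CPM and the next at 1.49 CPM, and the same library was the highest of its group in the sum of the germline markers (208 CPM, against 41.8 to 63.3 CPM).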

How the results depend on the processing

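Of 29 called P450 genes, 19 passed under all of the 19 alternatives that tested them, 10 were lost under at least 1, and none of these 29 changed sign. cyp-32B1, which was not called, changed sign with 1 library of each close pair left out (log2 fold change -0.04, adjusted p = 0.932, against 0.20 in the full set). The count of rising members ran from 14 (5 CPM filter, which tests 41 members) to 23, and that of falling members from 4 to 9, with 4 under that filter and 5 with 1 library of each close pair left out. DESeq2 and limma gave 20 rising and 9 falling members. Leaving out each library gave 18 to 23 rising and 7 to 9 falling members. With 1 library of each close pair left out, the partner and regulator genes gave 2 rising and 1 falling, and all genes 1335 rising and 1324 falling. Leaving out each library in turn gave 1 to 2 falling partner and regulator genes. Same-numbered libraries of the genotypes deviated together in 3 of 5 numbers and in opposite directions in the other two (correlations of 0.30, 0.33, -0.19, -0.18 and 0.24 over 12499 genes), so the numbers were not taken to pair the samples. With the replicate number as a block, 22 members rose and 8 fell, 6 partner and regulator genes rose and 2 fell, and all genes gave 2495 rising and 2269 falling. The cause of these shifts was not tested, apart from the fewer genes or libraries tested. The median log2 fold change of all genes was -0.03 under TMM and RLE and -0.06 under total-count scaling. Members under about 1 CPM rest on few reads, and a change in them may not be detectable at this depth.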
